A study of Mus musculus with 18 samples.

Results

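Ribosome biogenesis and nucleolar genes made up 49 of the 13104 genes measured in mouse embryonic stem cells (ESCs) and 49 of the 13717 genes measured in the epiblast-like cells (EpiLCs) derived from them. They were chosen by symbol: symbols that read Utp, Nop, Nol or Rrp followed by a digit, symbols that start with Polr1, and Gar1, Nhp2, Dkc1, Fbl, Ncl, Npm1, Bop1, Pes1 and Wdr12. The mouse annotation holds 51 such symbols, of which Nol4 and the pseudogene Utp14b-ps1 were not analysed here. All 49 genes passed the filter on low counts in both cell types, and the lowest count of any of them in any library was 16, for Nol3.

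The study asked whether Δ9-THC, the main psychoactive compound of cannabis, left a trace in the transcriptomes of naive and primed pluripotent stem cells. ESCs were grown in serum-free medium with inhibitors of MEK and GSK3 and with LIF, and carried Blimp1::mVenus and Stella::ECFP, fluorescent reporters of germline genes. EpiLCs were made from these ESCs with activin A and bFGF. The 4 groups were ESCs with vehicle (ethanol), ESCs with THC at 100 nM, EpiLCs with vehicle and EpiLCs with THC at 100 nM, with 3 biological replicates each. Exposed EpiLCs came from exposed ESCs, so their exposure was continuous over both stages. The study used a female and a male clone of this reporter line, and says of its main proliferation data that they came from female ESCs. The clone and the kit behind each sequencing library are not given in the sources used here, and the libraries of germ cell-like cells were not analysed here. Total adjusted counts ranged from 23427551 to 32096698 per library. The authors had removed batch variation from the counts, separately in each cell type, so SDs and p-values describe the spread left between the adjusted libraries. In both tables, vehicle and THC libraries with the same replicate number deviated from their group means in opposite directions (correlations over all genes of -0.987 to -0.977), so they are not independent of each other, and p-values from fits without the replicate number may be too small. Levels are compared between cell types without a test.

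The cells carried the markers of their labels. The summed level of 8 naive pluripotency markers, such as Esrrb and Klf4, was 3475 to 3665 CPM (counts scaled to the size of the library) in vehicle ESCs and 124 to 150 CPM in vehicle EpiLCs. With THC the sums were 3395 to 3566 CPM in ESCs and 137 to 166 CPM in EpiLCs. Primed markers, led by Dnmt3b and Dnmt3a, summed to 156 to 168 CPM over 5 genes in vehicle ESCs and to 1706 to 2035 CPM over 6 genes in vehicle EpiLCs. The corresponding sums with THC were 150 to 162 CPM and 1746 to 2075 CPM. Of the endoderm markers, 1 of 5 (Gata4) had a row in either table, at no more than 3.39 CPM in any library. Trophoblast markers had 2 of 5 rows (Eomes and Tfap2c), at 141 to 145 CPM in vehicle ESCs, 140 to 145 CPM in exposed ESCs, 22.8 to 27.1 CPM in vehicle EpiLCs and 24.4 to 28.8 CPM in exposed EpiLCs. Fibroblast markers summed to 5.65 to 7.39 CPM in all ESC libraries (2 of 5 genes) and to 11.9 to 15.3 CPM in all EpiLC libraries (3 of 5 genes). The ranges with vehicle and with THC overlapped for each of these marker lists in both cell types, and their part in the results below was not tested. Single genes moved both ways within a sum: mean levels in ESCs were 333 CPM with vehicle and 289 CPM with THC for Klf4, and 1279 and 1377 CPM for Tfcp2l1. The general pluripotency marker Pou5f1 had means of 373 and 316 CPM in ESCs and 367 and 314 CPM in EpiLCs, while Sox2 and Nanog had higher means with THC in both cell types.

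Ribosomes are built in the nucleolus, where RNA polymerase I transcribes the long precursor of the ribosomal RNAs. Small nucleolar ribonucleoproteins then modify this precursor: box C/D particles, with fibrillarin (Fbl) as their enzyme, methylate riboses, and box H/ACA particles, with dyskerin (Dkc1) as their enzyme, convert uridines to pseudouridine. Large sets of assembly factors fold, cleave and trim the RNA on the path to the small and the large subunit. The pathway is highly active in fast-growing pluripotent cells.

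The promoters of 39 of the 49 genes had an entry in the RefSeq promoter windows of build GRCm38.p6, which run from 250 bases before to 50 bases after an annotated start, and these genes held 46 windows. A total of 4 windows are shown, for genes named in the results on exposure. Gar1 and Utp14b were the genes called higher with THC in ESCs in the fit without the replicate number. Pes1 and Nop2 were among those whose exposed EpiLC libraries all lay below vehicle. Capitals mark the E-box CACGTG, the sequence bound by MYC and related factors, and the ETS core CCGGAAG or its complement CTTCCGG.
Gar1 (chr3:129831347-129831646, minus strand): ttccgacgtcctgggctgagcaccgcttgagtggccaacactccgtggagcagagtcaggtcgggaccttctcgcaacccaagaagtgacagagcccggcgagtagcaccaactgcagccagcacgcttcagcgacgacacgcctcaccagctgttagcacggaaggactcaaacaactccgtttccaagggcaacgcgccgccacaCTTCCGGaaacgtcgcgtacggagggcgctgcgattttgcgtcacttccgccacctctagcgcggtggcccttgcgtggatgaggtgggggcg
Utp14b (chr1:78658190-78658489, plus strand): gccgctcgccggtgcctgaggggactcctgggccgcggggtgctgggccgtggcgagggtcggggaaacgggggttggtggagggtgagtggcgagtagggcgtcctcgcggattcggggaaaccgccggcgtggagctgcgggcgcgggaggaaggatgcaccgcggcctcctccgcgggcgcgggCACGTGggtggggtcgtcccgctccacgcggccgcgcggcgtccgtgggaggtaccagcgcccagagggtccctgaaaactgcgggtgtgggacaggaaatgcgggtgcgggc
Pes1 (chr11:3963725-3964024, plus strand): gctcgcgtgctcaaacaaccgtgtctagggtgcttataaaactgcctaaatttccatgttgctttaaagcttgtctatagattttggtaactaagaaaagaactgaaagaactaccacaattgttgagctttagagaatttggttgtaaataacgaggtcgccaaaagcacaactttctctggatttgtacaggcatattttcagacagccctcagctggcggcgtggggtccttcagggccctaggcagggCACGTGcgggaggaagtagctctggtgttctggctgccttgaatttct
Nop2 (chr6:125131633-125131932, plus strand): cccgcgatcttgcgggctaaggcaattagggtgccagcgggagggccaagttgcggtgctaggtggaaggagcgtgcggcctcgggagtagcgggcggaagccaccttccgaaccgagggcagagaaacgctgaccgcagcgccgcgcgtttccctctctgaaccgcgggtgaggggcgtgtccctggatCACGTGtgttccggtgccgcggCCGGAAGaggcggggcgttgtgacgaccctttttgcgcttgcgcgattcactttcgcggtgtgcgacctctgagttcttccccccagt
Gar1 held an ETS core, Utp14b and Pes1 an E-box, and Nop2 both. Over both strands, CACGTG was in 17.4% of the 46 windows and in 7.15% of all 32851 windows of the same length. CCGGAAG was in 30.4% against 8.86%, and the GC box GGGCGG in 67.4% against 35.7%. These windows were also richer in G and C, with a median of 58.3% against 52.7% over all windows. CCAAT was in 30.4% of the windows against 37.4% of all, TATAAA in 10.9% against 13.6%, and ACTACAA, part of the ZNF143 motif, in 10.9% against 3.24%. The palindromic motif of NRF1 and the YY1 motif AAGATGGCG were in 0 of the 46 windows, against 0.971% and 1.40% of all windows. These counts describe letters only, and windows of 1 gene overlap in part. The genes with an E-box had a median log2(fold-change) with THC of 0.03 in ESCs and -0.066 in EpiLCs, beside 0.014 and -0.091 in the genes without it. For the ETS core the medians were 0.013 and -0.14 with it, beside 0.015 and -0.075 without it.

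With vehicle, the genes spanned 0.389 to 2474 RPKM in ESCs, a level per transcript length computed from CPM and the longest principal transcript. Npm1, an abundant histone and ribosome chaperone, was first in both cell types at 2474 RPKM in ESCs and 3735 RPKM in EpiLCs. Ncl, the nucleolar RNA-binding protein nucleolin, followed at 365 and 540 RPKM. After them came Fbl, the enzyme of the box C/D particle, at 211 and 321 RPKM. At the low end, Nol3 had 0.389 and 0.273 RPKM, and it codes for an inhibitor of apoptosis, not for a known ribosome factor. The median over the 49 genes was 41.6 RPKM in ESCs and 56.7 RPKM in EpiLCs. The place of Wdr12, a large-subunit factor, depends on the transcript used, at 10.9 RPKM in ESCs with the longest and 38.3 RPKM with the shortest principal transcript.

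**Figure D1:**
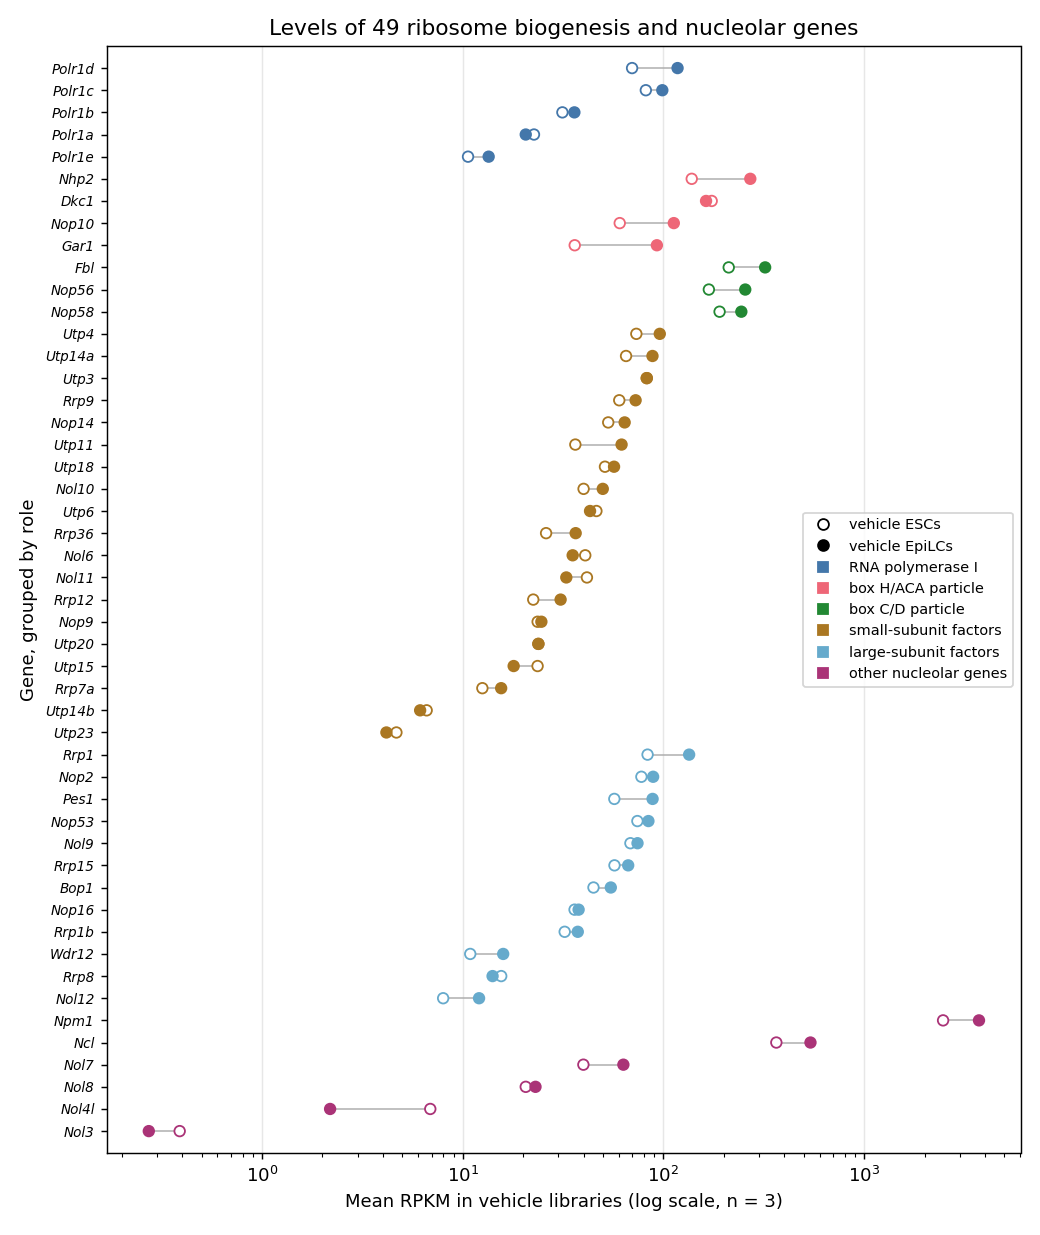
Mean RPKM (log axis) of each of the 49 genes in vehicle ESCs (open points) and vehicle EpiLCs (filled points), 3 libraries each, coloured by role. Npm1 and Ncl lie furthest to the right, and in most genes the filled point lies to the right of the open one, with Nol4l as the widest exception.

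EpiLCs had higher levels of most of these genes than ESCs. With vehicle, 37 of 49 genes had the higher mean CPM in EpiLCs, and in 33 of 49 genes all 3 EpiLC libraries lay above all 3 ESC libraries, against a background of 37.1% of the 12410 genes shared by the tables. For 3 genes, Nol3, Nol4l and Utp15, all EpiLC libraries lay below, against a background of 38.4%. The median log2 ratio of EpiLCs over ESCs was 0.27 for the 49 genes and -0.0001 for all shared genes, and it was 0.27 and 0.0024 when all 12 libraries were scaled together. With THC, 25 genes lay fully above and 6 fully below, against backgrounds of 35.7% and 38.7%, and the median log2 ratio was 0.17.

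The box H/ACA particle had the highest median among the roles, a log2 ratio of 0.93 over its 4 genes. Gar1, a small subunit of this particle, had 44.7, 45.4 and 47.7 CPM in the vehicle ESC libraries and 129, 104 and 121 CPM in the vehicle EpiLC libraries. The ranges were far apart, and the ratio of the means was 2.57. Nhp2, another core protein of the particle, had 141, 138 and 153 CPM in vehicle ESCs and 287, 245 and 315 CPM in vehicle EpiLCs, a ratio of 1.96. Nop10, the smallest core protein, went from 63.1, 64.5 and 73.9 CPM to 135, 118 and 123 CPM, a ratio of 1.86. Their enzyme Dkc1 did not share this: it had 463, 516 and 484 CPM in vehicle ESCs and 472, 388 and 512 CPM in vehicle EpiLCs, and the groups overlapped.

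The 3 proteins of the box C/D particle were all higher in EpiLCs, with log2 ratios of 0.60 for Fbl and Nop56 and 0.36 for Nop58. Within RNA polymerase I, Polr1d, a small subunit shared with RNA polymerase III, differed most. Its levels were 84.3, 77.2 and 89.0 CPM in vehicle ESCs and 140, 139 and 143 CPM in vehicle EpiLCs, a ratio of 1.69. The largest subunit, Polr1a, had 210, 214 and 203 CPM in vehicle ESCs and 189, 204 and 178 CPM in vehicle EpiLCs, with overlapping ranges. Among small-subunit factors, Utp11 had the largest ratio, 1.70, from 55.8, 59.97 and 59.3 CPM to 101, 96.1 and 100 CPM. Utp15, of the complex that links transcription and processing of the precursor, was at 100, 96.7 and 94.9 CPM in vehicle ESCs and at 72.4, 85.9 and 63.4 CPM in vehicle EpiLCs, fully below.

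Nol4l, which is named for its likeness to Nol4 and has no known part in ribosome assembly, had the lowest ratio, 0.317. It was at 47.8, 41.5 and 43.0 CPM in vehicle ESCs and at 15.7, 12.6 and 13.6 CPM in vehicle EpiLCs. Nol3 followed at a ratio of 0.702, Utp15 at 0.760, Nol11 at 0.789 and Nol6 at 0.866. Nol11 and Nol6 are small-subunit factors whose vehicle groups overlapped.

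The summed level of the 49 genes showed the same order of cell types. It was 12713, 13181 and 13434 CPM in vehicle ESCs, 14136, 13671 and 13468 CPM in exposed ESCs, 17626, 18079 and 18133 CPM in vehicle EpiLCs, and 16490, 16201 and 16162 CPM in exposed EpiLCs. The group means were 13109 ± 366, 13759 ± 342, 17946 ± 279 and 16284 ± 179 CPM (SD, n = 3). Exposed libraries lay above vehicle in ESCs and below vehicle in EpiLCs. Npm1 and Ncl held 53.4% to 53.9% of the sum in vehicle ESCs and 55.8% to 56.3% in exposed ESCs. Without them, the ESC sums of 5920 to 6192 CPM with vehicle and 5954 to 6183 CPM with THC overlapped. The EpiLC sums without them did not, at 7377 to 7459 CPM with vehicle and 6870 to 6885 CPM with THC. As a share of all counts, with no scaling between libraries, the 49 genes took 1.30% to 1.35% in vehicle ESCs and 1.33% to 1.39% in exposed ESCs, which overlap, and 1.75% to 1.79% in vehicle EpiLCs and 1.62% to 1.67% in exposed EpiLCs, which do not. In such bulk samples, fewer cells of a kind and less RNA per cell cannot be told apart.

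**Figure D2:**
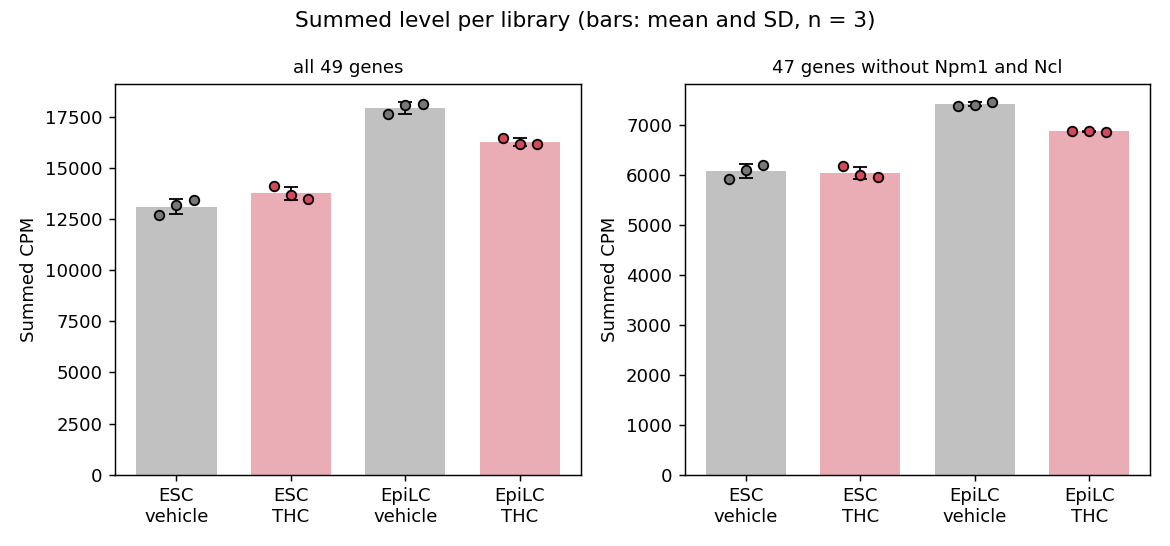
Summed CPM in each library (points) of all 49 genes (left) and of the 47 genes other than Npm1 and Ncl (right), with bars for the mean and error bars for the SD of 3 libraries. The EpiLC bars are the taller ones in both panels, and the exposed EpiLC points, at 16162 to 16490 CPM for all genes, lie below the vehicle points at 17626 to 18133 CPM.

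In ESCs, Gar1 and Utp14b were called higher with THC and Nop53 lower, at ratios of 1.16, 1.18 and 0.91 to vehicle, and the other 46 genes did not pass the test. These calls came from the fit without the replicate number and were lost in other settings, as given below. All 13104 genes were tested with edgeR's quasi-likelihood test, and a Benjamini-Hochberg (BH) adjusted p of at most 0.05 passed. The 2 higher genes of 49 stand beside a background of 3.37% of all genes called higher, and the 1 lower gene beside 3.55% called lower, so neither count was far from the background. The median log2(fold-change) was 0.014 for the 49 genes and 0.0041 for all genes, and 28 of 49 were positive, against 51.1% of all genes. At an unadjusted p under 0.05, 4 genes were higher and 3 lower, against backgrounds of 14.9% and 13.8%.

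Gar1 had 44.7, 45.4 and 47.7 CPM with vehicle and 54.4, 53.8 and 51.4 CPM with THC. All exposed libraries lay above all vehicle libraries, and the log2(fold-change) was 0.21 (SE 0.040, edgeR BH-adjusted p = 0.0376). Utp14b, a retrotransposed copy of the small-subunit factor Utp14a, had 46.3, 50.5 and 49.9 CPM with vehicle and 60.8, 55.9 and 56.9 CPM with THC. Again the groups did not overlap, and the log2(fold-change) was 0.24 (SE 0.050, edgeR BH-adjusted p = 0.0430). Its X-linked parent gene Utp14a, which works in the processome of the small subunit, had 159, 166 and 165 CPM with vehicle and 168, 160 and 163 CPM with THC, for a log2(fold-change) of 0.0037 with overlapping groups.

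Nop53, a large-subunit factor that brings the exosome to the maturing particle, had 233, 233 and 241 CPM with vehicle and 216, 217 and 210 CPM with THC. The exposed libraries all lay below, and the log2(fold-change) was -0.14 (SE 0.028, edgeR BH-adjusted p = 0.0429). Without any 1 of the 6 ESC libraries these 3 calls were lost, at adjusted p-values of 0.0797 to 0.138 for Gar1, 0.0825 to 0.134 for Utp14b and 0.0832 to 0.144 for Nop53 in edgeR with BH adjustment. With the replicate number as a block they were lost too, at edgeR BH-adjusted p-values of 0.418, 0.414 and 0.452 for Gar1, Utp14b and Nop53, and the calls over all ESC genes went from 906 to 5. They were also lost with offsets for GC content and length, where the log2(fold-change) was 0.30 for Gar1, 0.16 for Utp14b and -0.12 for Nop53.

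The other nucleolar genes included the most abundant ones. Npm1 had 3940, 4004 and 4175 CPM with vehicle and 4596, 4537 and 4367 CPM with THC, without overlap, at a log2(fold-change) of 0.16 (SE 0.037, edgeR BH-adjusted p = 0.0556). DESeq2, the alternative test, gave it an adjusted p of 0.0156, also with Benjamini-Hochberg adjustment. Ncl had 2854, 3066 and 3066 CPM with vehicle and 3356, 3131 and 3148 CPM with THC, for a log2(fold-change) of 0.10 that did not pass (SE 0.045, edgeR BH-adjusted p = 0.196). Nol8, which has been described with the nucleolar RAG GTPases, had 90.6, 90.3 and 89.2 CPM with vehicle and 94.4, 95.0 and 96.6 CPM with THC, at a log2(fold-change) of 0.082. In all, 5 of 49 genes lay fully above vehicle, against a background of 16.7%, and 3 fully below, against 15.9%.

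The 3 genes fully below vehicle were Nop53, Rrp9 and Bop1. Rrp9, which recognizes the U3 small nucleolar RNA, had 90.2, 94.6 and 102 CPM with vehicle and 87.5, 83.8 and 77.7 CPM with THC, for a log2(fold-change) of -0.20 (SE 0.060, edgeR BH-adjusted p = 0.0873). Bop1, which forms the PeBoW complex with Pes1 and Wdr12, had 108, 109 and 119 CPM with vehicle and 102, 102 and 92.8 CPM with THC, for a log2(fold-change) of -0.17 (SE 0.056, edgeR BH-adjusted p = 0.102). Its partners were not displaced in the same direction. Pes1 had a log2(fold-change) of 0.026 and Wdr12 of 0.073, and both groups overlapped for Pes1 at 163 to 171 CPM with vehicle and 164 to 172 CPM with THC.

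The medians by role stayed close to 0 in ESCs. They were 0.031 for the 5 RNA polymerase I genes, 0.023 for the 4 genes of the box H/ACA particle, 0.0057 for the 3 of the box C/D particle, 0.0037 for 19 small-subunit factors, 0.013 for 12 large-subunit factors and 0.068 for 6 other nucleolar genes. Within the box H/ACA particle the values were mixed, at 0.21 for Gar1, 0.094 for Nop10, -0.046 for Dkc1 and -0.090 for Nhp2. The lowest value of RNA polymerase I was that of Polr1e, the subunit also called PAF53, at -0.16 with overlapping groups of 27.6 to 33.8 CPM with vehicle and 26.4 to 32.3 CPM with THC.

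**Figure D3:**
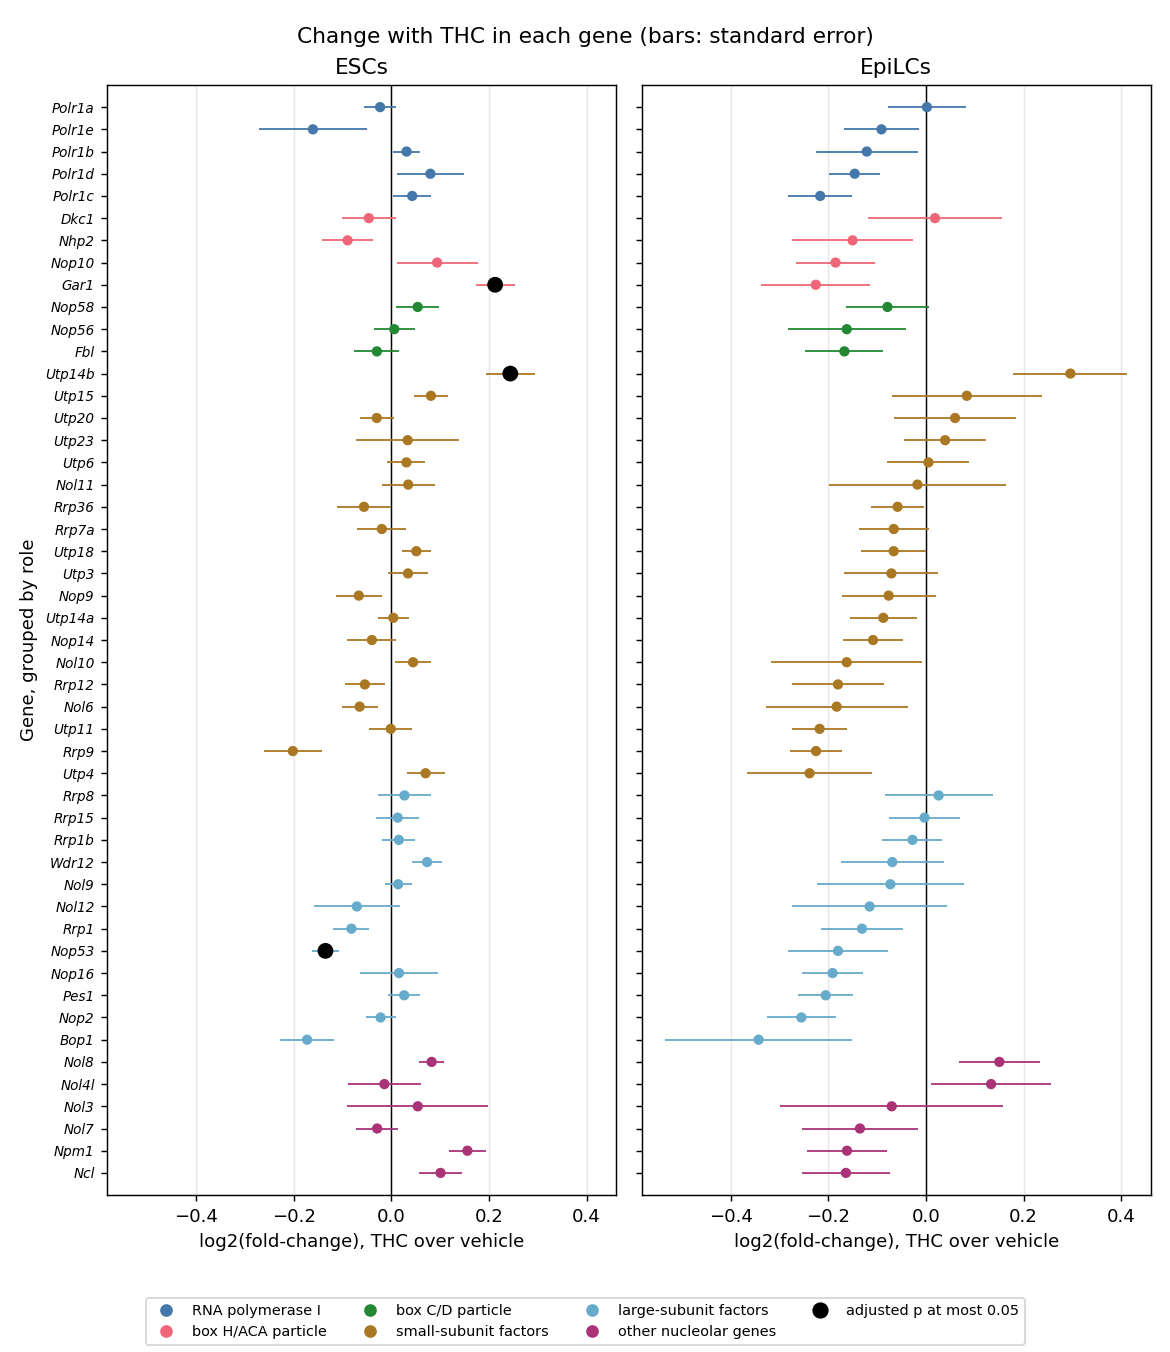
The log2(fold-change) of THC over vehicle (points, with the SE as a bar) for each of the 49 genes in ESCs (left) and EpiLCs (right), coloured by role, with black points for an adjusted p of at most 0.05 in edgeR. Points lie on both sides of 0 in ESCs, at a median of 0.014, and mostly left of 0 in EpiLCs, at a median of -0.11.

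In EpiLCs, no gene of the 49 passed the test in edgeR, and neither did any of all 13717 genes (a background of 0%). DESeq2 called 0 of the 49 genes as well. At an unadjusted p under 0.05 in edgeR, 1 gene was higher and 7 were lower, against backgrounds of 8.28% and 6.80%, and DESeq2 gave the same 2 counts. In DESeq2, 1424 of all 13717 genes passed at that level, in either direction. The values nevertheless lay mostly on the lower side: 39 of 49 genes had a negative log2(fold-change), against 49.3% of all genes, and the median was -0.11, against 0.0030 for all genes. In 12 of 49 genes all exposed libraries lay below all vehicle libraries, against a background of 10.6%, and in 0 of 49 all lay above, against 11.2% (21.8% in either direction).

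Among these 12 genes were 2 subunits shared by RNA polymerases I and III, 1 gene of the box H/ACA particle, 4 small-subunit factors, 4 large-subunit factors and Npm1. Polr1c had 135, 132 and 123 CPM with vehicle and 107, 111 and 117 CPM with THC, for a log2(fold-change) of -0.22 (SE 0.065, edgeR BH-adjusted p = 0.222). Polr1d had 140, 139 and 143 CPM with vehicle and 127, 130 and 125 CPM with THC, for a log2(fold-change) of -0.15 (SE 0.052, edgeR BH-adjusted p = 0.272). Of the other subunits, Polr1b and Polr1e had values of -0.12 and -0.091 with overlapping groups, and Polr1a, the catalytic subunit, was at 0.0018.

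Large-subunit factors included Bop1 and Nop2, the genes with the lowest values. Pes1 had 253, 265 and 253 CPM with vehicle and 226, 217 and 227 CPM with THC, well apart, at a log2(fold-change) of -0.21 (SE 0.057, edgeR BH-adjusted p = 0.204). Nop2, an RNA cytosine methyltransferase of the large subunit, had 227, 245 and 220 CPM with vehicle and 195, 182 and 202 CPM with THC, at -0.26 (SE 0.071, edgeR BH-adjusted p = 0.204). Bop1 had the lowest log2(fold-change) of all 49 genes, -0.34, with 122, 165 and 122 CPM with vehicle and 121, 80.9 and 121 CPM with THC. That value rested largely on the second replicate of each group, and the SE was 0.19. Nop16 had 64.2, 69.5 and 65.4 CPM with vehicle and 59.8, 55.5 and 59.1 CPM with THC, at -0.19. Wdr12, the partner of Pes1 and Bop1, was at -0.069 with overlapping groups.

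Of the small-subunit factors, Rrp9 had the smallest unadjusted p of the 49 genes in EpiLCs, 0.0047 in edgeR. It had 115, 119 and 113 CPM with vehicle and 98.5, 96.2 and 101 CPM with THC, at a log2(fold-change) of -0.23 (SE 0.054, edgeR BH-adjusted p = 0.179). Utp11 had 101, 96.1 and 100 CPM with vehicle and 83.0, 88.5 and 84.3 CPM with THC, at -0.22 (SE 0.056, edgeR BH-adjusted p = 0.199). Nop14 and Rrp36 were also fully below vehicle, at -0.11 and -0.058. For Rrp36 the gap was narrow, from 42.98 CPM in the lowest vehicle library to 42.58 CPM in the highest exposed library. With offsets for GC content and length its value was 0.041. Utp4, of the same complex as Utp15, was at -0.24 with overlapping groups, and Utp15 itself at 0.084. Utp14b was the gene with the highest value, 0.30, as 44.1, 51.0 and 41.0 CPM with vehicle and 57.3, 48.6 and 61.3 CPM with THC, where 1 exposed library lay inside the vehicle range.

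Npm1 had 6083, 6139 and 6074 CPM with vehicle and 5430, 5446 and 5477 CPM with THC. These are tight and separate groups, yet the log2(fold-change) of -0.16 did not pass (SE 0.082, edgeR BH-adjusted p = 0.412). Ncl had 4165, 4529 and 4600 CPM with vehicle and 4174, 3875 and 3815 CPM with THC, also at -0.16, with 1 exposed library just above the lowest vehicle library. Gar1, whose exposed libraries all lay above vehicle in ESCs, had 129, 104 and 121 CPM with vehicle and 91.0, 113 and 98.6 CPM with THC in EpiLCs, at -0.23 with overlapping groups (SE 0.11, edgeR BH-adjusted p = 0.399). Nop10 lay fully below vehicle at -0.19, Nhp2 was at -0.15 and Dkc1 at 0.018, both with overlap. The 3 proteins of the box C/D particle were at -0.17 (Fbl), -0.16 (Nop56) and -0.079 (Nop58), all with overlap.

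Every role had a negative median in EpiLCs. It was -0.12 for RNA polymerase I, -0.17 for the box H/ACA particle, -0.16 for the box C/D particle, -0.071 for small-subunit factors, -0.12 for large-subunit factors and -0.10 for other nucleolar genes. When the 12 libraries of both cell types were fitted together, which lets all groups share the estimate of the spread, 3 of the 49 genes were called lower in EpiLCs and 0 higher, against backgrounds of 1.28% and 2.03%. These were Nop2, Pes1 and Utp11, at edgeR BH-adjusted p-values of 0.0376, 0.0447 and 0.0472 beside 0.184, 0.212 and 0.229 in DESeq2, and 411 of 12410 genes were called in that fit. Fitted alone, EpiLCs had 0 calls over 13717 genes, while the calls in ESCs went from 906 alone to 31 in the joint fit. The joint fit left out the replicate number, so its p-values may be too small. In the same fit the counts at an unadjusted p under 0.05 were 15 lower and 2 higher, against 10% and 11.4% of all genes.

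**Figure D4:**
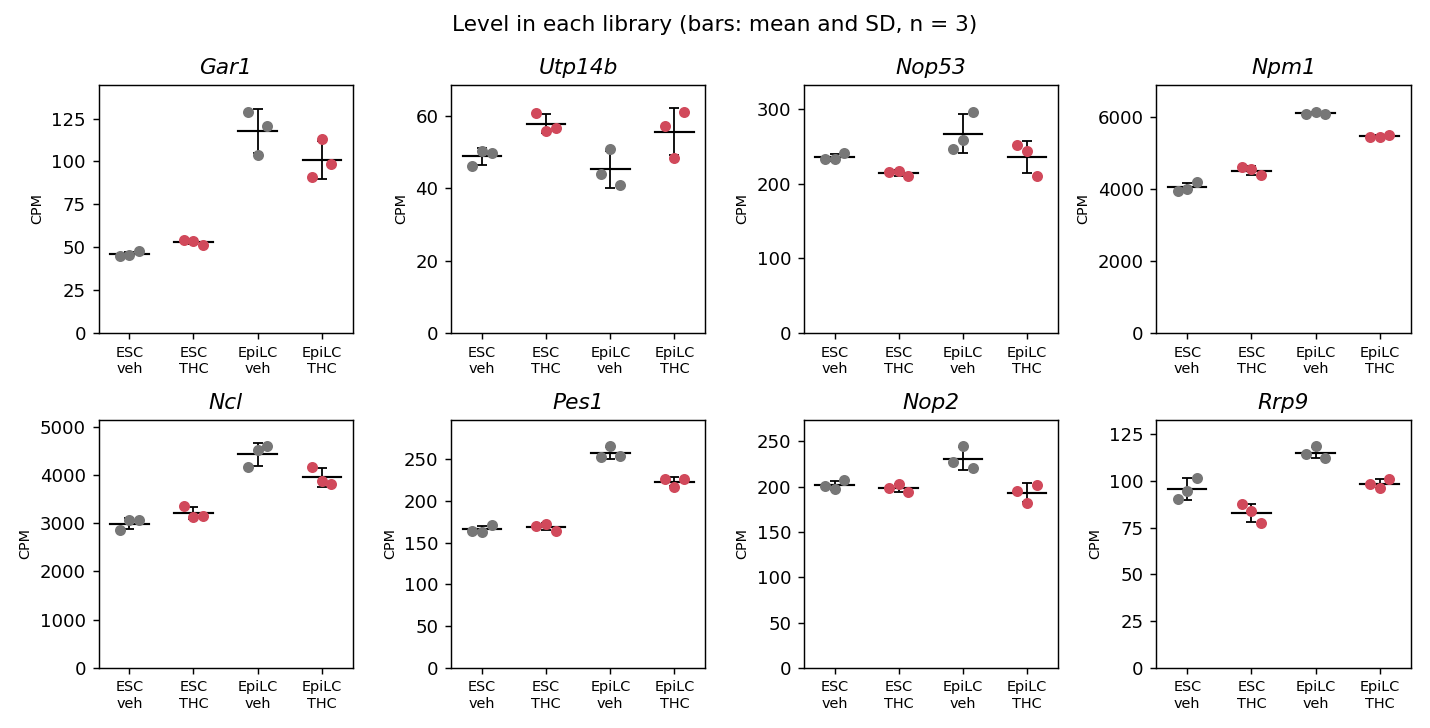
CPM in each library (points) of 8 of the genes in the 4 groups, with the mean and SD of 3 libraries as lines. Npm1 shows the 2 directions most clearly, with exposed libraries above vehicle in ESCs (4367 to 4596 against 3940 to 4175 CPM) and below it in EpiLCs (5430 to 5477 against 6074 to 6139 CPM).

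Whether THC acted differently in ESCs and EpiLCs was tested with an interaction term over 12 libraries and 12410 shared genes. Exposed EpiLCs had also been exposed as ESCs, so cell type and length of exposure cannot be told apart in this term. None of the 49 genes passed in edgeR (backgrounds of 0.0242% more positive and 0.00806% more negative in EpiLCs), and DESeq2 called 1, Npm1. At an unadjusted p under 0.05 in edgeR, 8 genes had a more negative effect in EpiLCs and 0 a more positive one, against backgrounds of 4.83% and 8.90%. DESeq2 gave 10 and 0, where 1519 of all 12410 genes passed in either direction. The 8 genes were Npm1, Gar1, Pes1, Polr1c, Nop2, Utp11, Ncl and Polr1d. Npm1 had a difference of -0.30 on the log2 scale (SE 0.089, edgeR BH-adjusted p = 0.165). Gar1 had the largest difference, -0.42 (SE 0.13, edgeR BH-adjusted p = 0.169). Over all 49 genes the median difference was -0.075, against 0.014 for all genes, and 36 of 49 were negative, against 47.1%, and 13 positive, against 52.9%. Npm1 was the 1 gene of the 49 whose exposed libraries lay fully above vehicle in ESCs and fully below it in EpiLCs, against a background of 0.87%, and none had the opposite pattern, against 1.08%. With offsets for GC content and length, the median difference over the 49 genes was -0.084, with 42 of 49 negative. Over all genes it was then -0.014, with 6617 of 12410 negative. With the replicate number as a block, edgeR called 0 of the 12410 genes for the interaction.

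Changes with THC followed the GC content of transcripts across all genes, and the 49 genes shared this trend in part. Over 13083 genes of ESCs, the log2(fold-change) and the GC content of the longest principal transcript had a Spearman correlation of -0.55, and over 13696 genes of EpiLCs it was -0.31. These are correlations across genes measured in the same 6 libraries, so the genes are not independent replicates. Over the 49 genes they were -0.53 and -0.36. The median GC content of the 49 genes, 50.8%, was close to that of all genes, 50.2% in the ESC table and 50.4% in the EpiLC table. When all genes were split into 10 equal bins by GC content, 36 of the 49 lay inside the quartiles of their bin in ESCs, 8 below and 5 above. Rrp9 (59.8% GC) and Bop1 (58.2%) were at the GC-rich end, where bins of all genes had medians of -0.098 and -0.14, and Npm1 (42.4%) and Ncl (42.8%) at the GC-poor end, where medians were 0.099 to 0.17. Gar1, at 57.0% GC, lay above the upper quartile of its bin. In EpiLCs, 26 of the 49 lay below the lower quartile of their bin, 21 inside and 2 above, and 40 of 49 lay below its median. With offsets for GC content and length, the median of the 49 genes was 0.0060 in ESCs and -0.11 in EpiLCs, beside -0.0004 and -0.016 for all genes. The offsets took Npm1 to 0.035 and Ncl to 0.0093 in ESCs, and to -0.19 and -0.35 in EpiLCs. With them, the Spearman correlation with GC content over the 49 genes was 0.43 in ESCs and 0.097 in EpiLCs. In ESCs the trend among these genes was thus reversed and not removed, so values with the offsets are not free of GC content. What underlies the trend with GC content was not tested.

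**Figure D5:**
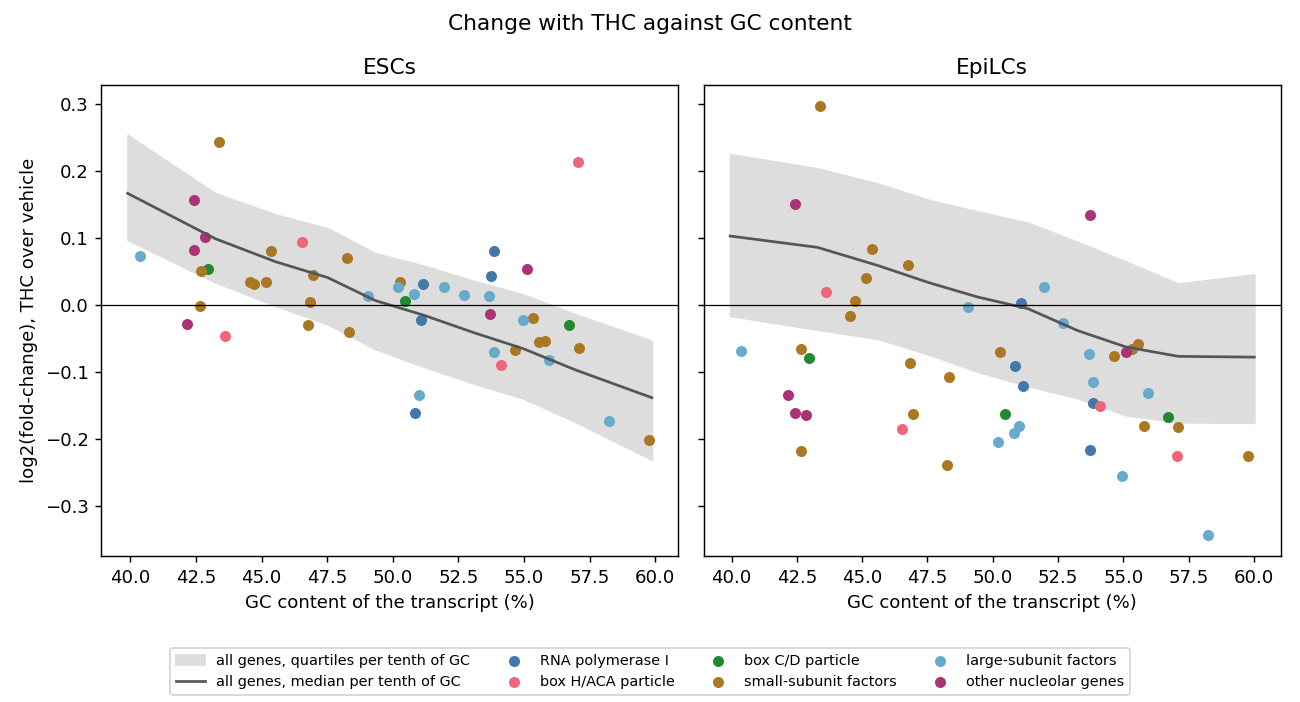
The log2(fold-change) of THC over vehicle against the GC content of the transcript in ESCs (left) and EpiLCs (right), with a point for each of the 49 genes, coloured by role, and, for 10 bins of all genes by GC content, the median (line) and quartiles (grey band). Judged by the quartiles of their own bin, 36 of 49 genes lie inside in ESCs and 26 of 49 lie below in EpiLCs.

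A wider list of 120 further ribosome biogenesis genes, listed by function, was read in the same fits. In ESCs, 3 of the 120 were called higher and 1 lower, which is 2.5% and 0.833% of the list against 3.37% and 3.55% of all genes. Brix1, a large-subunit factor, had 171, 175 and 172 CPM with vehicle and 188, 185 and 189 CPM with THC, and Rsl1d1, a ribosomal L1 domain protein, had 392, 385 and 404 CPM with vehicle and 442, 452 and 433 CPM with THC. Their log2(fold-changes) were 0.12 and 0.17 (edgeR BH-adjusted p = 0.0427 and 0.0344). The third was Sdad1 at 0.11, and the lower gene was the helicase Ddx54 at -0.14 (edgeR BH-adjusted p = 0.0489 and 0.0469). The largest values in ESCs were those of Taf1d, a subunit of the selectivity factor of RNA polymerase I, at 0.30, Dimt1 at 0.23 and Naf1 at 0.21, and the smallest those of Wdr18 and Wdr46 at -0.16 and of Ddx54, and Taf1d did not pass (edgeR BH-adjusted p = 0.0572). In EpiLCs none of the 120 passed in edgeR, and DESeq2 called 1 lower. At an unadjusted p under 0.05 in edgeR, 30 of the 120 were lower and 3 higher, against 6.80% and 8.28% of all genes. Their median was -0.11, against 0.0030 for all genes, and 99 of 120 were negative, against 49.3%. A total of 41 of the 120 lay fully below vehicle, against 10.6% of all genes, and 4 fully above, against 11.2%. The largest values there were those of Taf1a (0.35), Ttf1 (0.25) and Tgs1 (0.23), and the smallest those of Ddx49 (-0.41), Znhit3 (-0.36) and Wdr74 (-0.31). Ttf1 ends transcription by RNA polymerase I, and Tgs1 caps small RNAs. A total of 4 genes carry later symbols that would meet the rule. Of these, Twistnb, now Polr1f, was called higher in ESCs at 0.17 and Znrd1, now Polr1h, lower at -0.19 (edgeR BH-adjusted p = 0.0304 and 0.0368). Diexf and Cd3eap were at 0.053 and -0.017 in ESCs, and none of the 4 passed in EpiLCs.

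The values of some genes may be too low where their exons overlap those of other genes. Reads were counted without strand and in union mode, where a read over exons of more than 1 gene counts for none. RPKM, as of Nol3, was still divided by lengths that include such shared bases. Nol3 shares 48.2% of its exonic bases with 4931428F04Rik, Nop9 29.9% with Cideb, Nol7 16.5% with Ranbp9 and Rrp7a 12.5% with Serhl in the GENCODE M21 annotation. Utp14b (chromosome 1, from 78658038 to 78671512) lies in Acsl3, a gene of fatty acid activation, and shares 3.18% of its exonic bases with it. It is also close in sequence to Utp14a, and reads that map to both places were not counted. Of the other genes called in ESCs, Gar1 (chromosome 3, from 129824912 to 129831396) and Nop53 (chromosome 7, from 15936183 to 15946074) share no exonic bases with another gene. Small nucleolar RNAs, which guide the modifications described above, lie within Nop56 (5 of them), Nop58 (4), Ncl (3), Dkc1 (1) and Nop53 (1). The libraries were made from poly(A) RNA, so these values describe the host genes.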

How the data were processed

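RNA was measured in 12 libraries, 3 for each cell type and exposure. The authors used STAR for alignment and HTSeq (union mode, unstranded, unique reads only) for gene counts, dropped low counts and then applied ComBat-seq, whose batches are not given in the sources used here. Each cell type has its own deposited table of these counts, which are whole numbers without scaling for library size. Both mm10 and GRCm39 are named as the genome, so positions, from GENCODE M21 (GRCm38), only describe the genes. The authors' own tables of fold changes were not used, and 0 columns of values were left over.

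Counts were scaled with TMM. The quasi-likelihood test of edgeR 4.0.16 (R 4.3.3) compared THC with vehicle separately in ESCs and EpiLCs. Genes needed over 10 counts in total, which all had, and p-values were adjusted with Benjamini-Hochberg over all of them at a threshold of 0.05. The SE is the one implied by the test statistic. The interaction was fitted over 12 libraries. Nothing was tested across the 2 tables' levels. The fits were tested on simulated data with independent libraries. That test cannot show whether p-values hold for the libraries here, which are tied by replicate number.

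Alternatives were RLE normalization, no filter, DESeq2 1.42.0, the replicate number as a block, offsets for GC content and length (natural splines with 5 degrees of freedom for each library), the block with the offsets, a fit of 12 libraries and each library left out in turn. A list with 4 later symbols and 1 without Nol3 and Nol4l were added after seeing the data. The members and lists were chosen with earlier results of these data known. Named genes were Gar1, Dkc1, Fbl, Ncl, Nhp2, Npm1, Bop1, Pes1, Wdr12, every Polr1 gene, the 5 largest and 5 smallest log2(fold-changes) in each cell type, every gene past the threshold, the 5 largest and 5 smallest ratios of EpiLCs to ESCs, and the 3 largest and 3 smallest changes of the wider list in each cell type. Other genes were named after their values were seen.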

Additional observations from a re-analysis of the deposited data

Results flagged for a closer look

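Npm1 stood out because the cell types moved apart: all 3 exposed ESC libraries lay above all 3 vehicle libraries (4367 to 4596 against 3940 to 4175 CPM), and all 3 exposed EpiLC libraries lay below (5430 to 5477 against 6074 to 6139 CPM). It was the only gene of the 49 with this pattern, which 108 of 12410 shared genes (0.87%) had. The interaction was -0.30 on the log2 scale, with a Benjamini-Hochberg adjusted p of 0.165 in edgeR and 0.00015 in DESeq2. Neither of these fits used the replicate number, so both p-values may be too small. Cell type and length of exposure cannot be told apart here, since exposed EpiLCs came from exposed ESCs. With that number as a block, edgeR called 0 of the 12410 genes for the interaction. With offsets for GC content and length the ESC value of Npm1 was 0.035 and the EpiLC value -0.19.

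Of the 120 further ribosome biogenesis genes, 6 had the same pattern. Their interactions in edgeR were -0.35 for Taf1b, -0.30 for Exosc8, -0.27 for Brix1, -0.27 for Rsl1d1, -0.22 for Rpf2 and -0.16 for Rsl24d1, with Benjamini-Hochberg adjusted p-values from 0.0803 (Exosc8) to 0.295 (Rsl24d1), so none passed. The opposite pattern, lower in ESCs and higher in EpiLCs, was in none of the 49 or the 120 genes and in 134 of 12410 genes (1.08%). The cause was not tested.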

How the results depend on the processing

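Medians kept their direction under RLE normalization, no filter, DESeq2, the block, the offsets and the changed lists (0.0055 to 0.014 in ESCs, -0.12 to -0.11 in EpiLCs), except that the fit of 12 libraries gave -0.0026 in ESCs, where leaving out 1 library gave -0.015 to 0.019 (-0.12 to -0.097 in EpiLCs). All genes passed the filter, so the fits without it were the same fits. The block left log2(fold-changes) nearly as they were, so neither of these settings tests the direction. Calls were less stable. The 2 higher and 1 lower genes of the 49 in ESCs, and the 3 and 1 of the 120, became 0 in edgeR under the GC and length offsets, the fit of 12 libraries and, without any 1 library, 0 to 0, while the 49 genes kept 4 higher and 5 lower at an unadjusted p under 0.05 with the offsets, and 2 and 1 in the fit of 12 libraries. DESeq2 gave 3 higher and 2 lower of the 49, 5 higher and 0 lower of the 120 (16 and 9 unadjusted) in ESCs, 1 lower of the 120 in EpiLCs and 1 interaction. Over all genes, DESeq2 called 440 higher and 319 lower of 13104 in ESCs, and 61 higher and 26 lower of 13717 in EpiLCs. At an unadjusted p under 0.05, in either direction, 2563 of 13104 ESC genes passed in DESeq2. In edgeR 2356 of 13104 did so with the offsets, and 1961 of 12410 in the fit of 12 libraries. The 4 later symbols gave 3 higher and 2 lower in ESCs. The fit of 12 libraries called 3 lower of the 49, and 1 higher and 5 lower of the 120, in EpiLCs. Over all genes of ESCs, 906 calls in edgeR became 759 in DESeq2, 2 with the offsets, 31 in the fit of 12 libraries and at most 1 without a library. EpiLCs had 0 calls (2069 genes at an unadjusted p under 0.05), 87 in DESeq2 and 411 in the fit of 12 libraries, and the interaction 4, 133 in DESeq2 and 27 with the offsets. In edgeR the interaction had 0 calls with the replicate number as a block, with the block and offsets together, and without any 1 library. The cause was not tested.

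With the replicate number as a block, 0 of the 49 and 0 of the 120 genes were called in ESCs or EpiLCs (2 higher and 2 lower of the 49 at an unadjusted p under 0.05 in ESCs, 0 and 0 in EpiLCs), as with the block and offsets together. With the block, 1454 of 13104 ESC genes and 291 of 13717 EpiLC genes had an unadjusted p under 0.05, in either direction. The block gave Gar1 0.21 (adjusted p 0.418 in edgeR, Benjamini-Hochberg), Utp14b 0.24 (0.414) and Nop53 -0.14 (0.452), and 5 calls over all ESC genes. The labels call the numbers biological replicates and do not say whether vehicle and THC libraries with the same number belong together. Deviations of same-numbered vehicle and THC libraries from their group means correlated at -0.987 to -0.977 over all genes, in all 6 pairs, and those of different numbers at 0.223 to 0.695, so the numbers tie the libraries without making them deviate together, and p-values without the block may be too small.

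The lists of signs below cover only the genes named by the rules given above, not every gene of the set. Among them, signs of small values turned with the offsets, and nearly alike with the block and offsets (second value): in ESCs Fbl (0.0487, 0.0488), Nol11 (-0.0471, -0.0472), Nol4l (0.0573, 0.0573), Nol6 (0.0454, 0.0452), Nol8 (-0.0249, -0.0250), Nop2 (0.0484, 0.0483), Polr1a (0.0052, 0.0053) and Wdr12 (-0.0707, -0.0709), in EpiLCs Dkc1 (-0.0359, -0.0348), Polr1a (-0.1325, -0.1323), Utp15 (-0.0116, -0.0121) and Utp20 (-0.1075, -0.1079). Genes outside these lists also turned with the offsets, such as Nop58 (-0.0568) and Rrp12 (0.0355) in ESCs and Rrp36 (0.0411) and Rrp15 (0.0275) in EpiLCs. Polr1a in EpiLCs was -0.0007 with RLE and -0.0008 in DESeq2. Without 1 library, signs among the genes named by rule turned within these ranges: in ESCs Nol11 (-0.0066 to 0.0712), Nol3 (-0.0182 to 0.1512), Nol4l (-0.0576 to 0.0520) and Utp11 (-0.0318 to 0.0203), in EpiLCs Dkc1 (-0.1062 to 0.1092), Nol11 (-0.1214 to 0.1367), Nol3 (-0.2440 to 0.0970), Polr1a (-0.0497 to 0.0543), Utp15 (-0.0315 to 0.2066) and Utp20 (-0.0178 to 0.1606). Counting error limits Nol3, at 16 to 45 counts.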
